A study of Mus musculus with 2 samples.

Results

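The TNF ligand and receptor superfamily was examined as a group of 37 of the 20807 autosomal protein-coding genes of the mouse annotation (GENCODE M21). The group held the genes whose symbols begin with Tnfrsf or Tnfsf, without Tnfrsf4 and Tnfrsf18, and Fas, Fasl, Ltbr, Lta, Ltb, Tnf and Cd40. It contained 15 ligand genes, 21 receptor genes and the read-through gene Tnfsfm13, which joins Tnfsf12 and Tnfsf13. The rule works on gene symbols. Chromatin accessibility had been measured by DNase-seq in whole thymus tissue of 2 female B6CASTF1/J mice aged 36 days, with 1 library per mouse. B6CASTF1/J mice carry 1 genome each of C57BL/6J, a laboratory strain, and CAST/EiJ, derived from wild mice. Both libraries formed 1 group with no treatment and no control group, so no condition was compared and no test between groups was possible. The labels number the animals separately but give both libraries the same donor record, and they do not say whether that record stands for an animal or for the strain.

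Ligands of this superfamily are mostly trimeric membrane proteins, some of which are shed, and their receptors carry cysteine-rich repeats outside the cell. Receptors with a death domain can start apoptosis through FADD and caspase-8, whereas most others recruit TRAF adaptors and activate NF-kB. In the thymus, lymphotoxin, CD40 ligand and RANK ligand made by lymphoid cells are known to instruct the epithelium of the medulla, where developing T cells are tested for self-reactivity.

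DNase I cuts DNA that is not wrapped tightly around nucleosomes, and a peak is a stretch with many cuts. Coordinates are mm10, the build named in the labels. The shorter of the deposited peak lists held 59484 peaks in mouse 1 and 72913 in mouse 2, and the longer list held 93107 and 117361. The value reported for a peak is its deposited height, called signal here, and all heights in a library were whole multiples of 1 smallest step. The weakest peak was 10 steps high in either library, and the sources used here do not give the number of reads. Markers checked the labelled tissue. All 12 thymocyte genes, Rag1, Cd3e and Cd8a among them, had a promoter peak in both mice, against 57.3% of all genes. Of the markers of other cells, this held for Pax5 and Cd79b from B cells, 1 of 5 from myeloid cells, 2 of 6 from thymic epithelium and 4 of 5 from endothelium and mesenchyme. Cd79a, Ms4a1, Csf1r, Adgre1, C1qa, Foxn1, Psmb11, Krt5, Krt8 and Cdh5 had none in either mouse. The tissue was not sorted, so fewer cells of a type and less accessible chromatin per cell cannot be told apart in any value below.

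Most superfamily promoters were accessible, and the accessible ones were weak. A promoter peak is one that overlaps the sequence within 1000 bp of any annotated start of the gene. In both mice, 26 of the 37 genes had one, against 57.3% of all autosomal protein-coding genes. Among them were 10 of the 15 ligand genes and 16 of the 21 receptor genes. Without peaks near another gene's start, the counts were 25 members, 10 ligand genes and 15 receptor genes. A further 6 genes had a promoter peak in mouse 2 alone, a class that held 6.62% of all genes. No member had one in mouse 1 alone, a class of 0.38% of all genes. Tnfsf13b and Tnfsf15 were found only on the longer list of mouse 2. Tnfsf13, Tnfsf18 and Tnfrsf17 had no promoter peak on any list, as had 29.8% of all genes. On the longer list, 29 members had a promoter peak in both mice, against 61.6% of all genes. Bases of significant cutting, which the authors listed at a false discovery rate (FDR) below 0.05, lay within 1 kb of a start site in both mice for 29 members as well, against 62.7% of all genes.

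**Figure D1:**
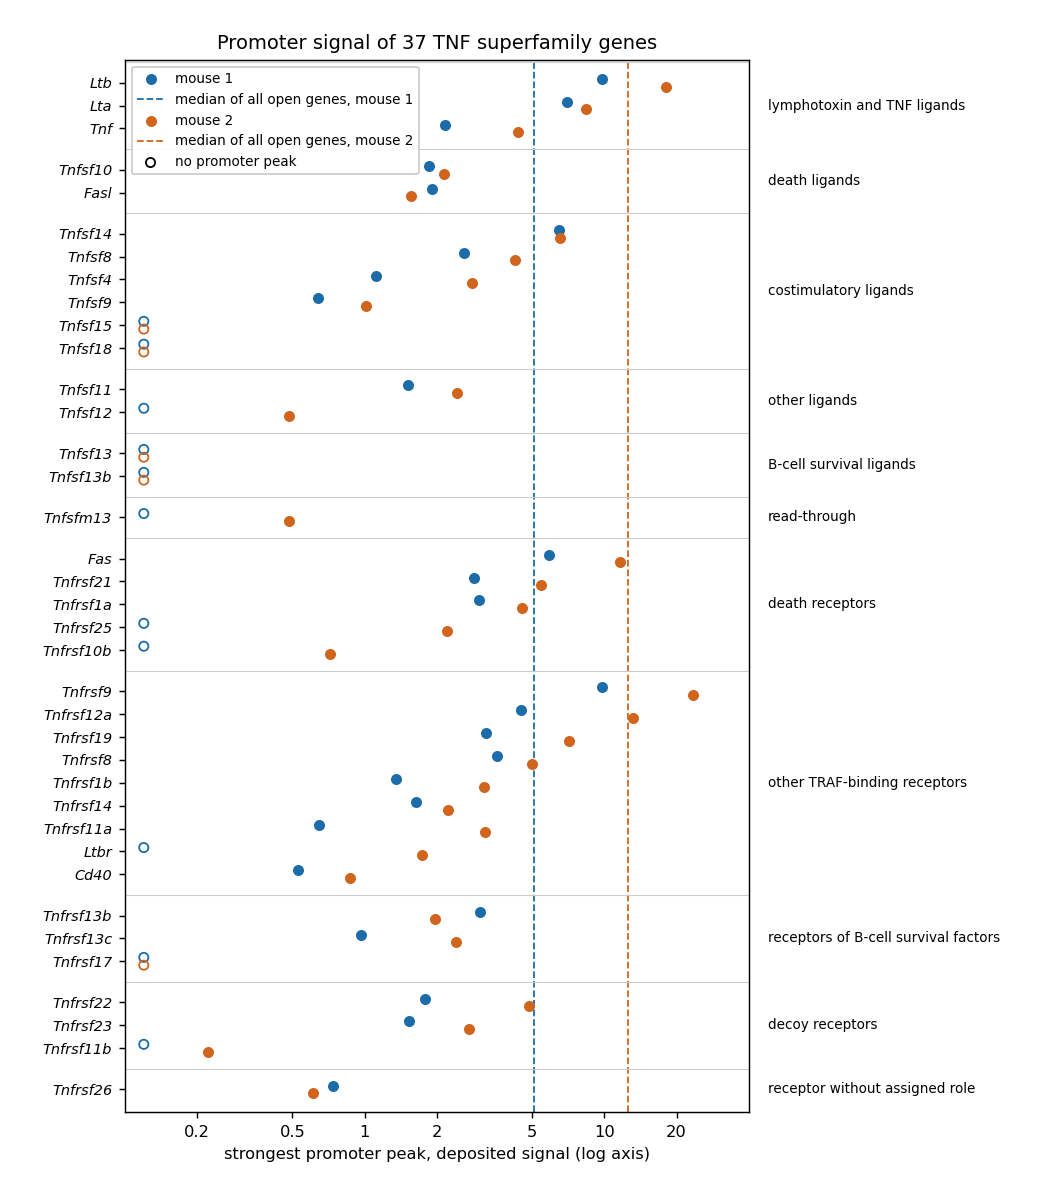
Signal of the strongest promoter peak (log axis) of each of the 37 genes in mouse 1 (blue) and mouse 2 (orange), ordered by role; open circles mark genes with no promoter peak, and dashed lines give the median of all genes accessible in both mice (5.09 and 12.5). Ltb and Tnfrsf9 lie to the right of the line of their own mouse in both mice, Tnfrsf9 through a peak that also lies beside a Park7 start.

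Of the ligand genes, Ltb had the strongest promoter and lay in the densest group of accessible sites. Ltb encodes lymphotoxin beta, which holds lymphotoxin alpha at the cell surface. Its promoter reached 9.76 in mouse 1 and 18.1 in mouse 2, higher than that of 82.6% of all genes by the mean of both mice. Tnf, the gene of the cytokine that names the family, reached 2.17 and 4.35. Lta, the lymphotoxin alpha gene, had 6.95 and 8.39. In both mice the order was Ltb, Lta, Tnf. The Lta peak with that signal lay 551 bp inside the gene, over the start of the microRNA gene Mir6974. The peak at the Lta start itself had a signal of 2.72 in mouse 1 and 5.89 in mouse 2.

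The promoters of Ltb and Tnf are shown because they stand in this cluster at high and at low signal. The sequences are RefSeq promoters of build GRCm38.p6, from 250 bases before to 50 after the start, in the direction of the gene. Capitals mark matches to the consensus motifs searched on both strands: the NF-kB motif, of 10 letters, in Ltb, and the SP/KLF motif GGGCGG or its complement in Tnf. The Ltb promoter lies on the plus strand at chr17:35194257-35194556, and the Tnf promoter on the minus strand at chr17:35201958-35202257.
Ltb promoter: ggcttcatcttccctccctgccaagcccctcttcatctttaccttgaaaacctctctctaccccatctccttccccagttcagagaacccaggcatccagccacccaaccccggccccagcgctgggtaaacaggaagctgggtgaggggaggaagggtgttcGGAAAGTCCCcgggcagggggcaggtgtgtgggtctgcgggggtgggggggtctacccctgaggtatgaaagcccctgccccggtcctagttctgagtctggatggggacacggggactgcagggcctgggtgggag
Tnf promoter: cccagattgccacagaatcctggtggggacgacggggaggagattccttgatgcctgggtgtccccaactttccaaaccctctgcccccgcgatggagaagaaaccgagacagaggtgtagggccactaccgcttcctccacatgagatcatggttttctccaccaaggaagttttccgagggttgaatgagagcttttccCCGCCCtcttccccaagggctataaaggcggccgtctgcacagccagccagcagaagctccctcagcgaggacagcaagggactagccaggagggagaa
Footprints are short stretches protected from cutting inside an accessible site, as the authors deposited them. The Ltb promoter held 4 footprints in mouse 1 and 8 in mouse 2, and the Tnf promoter held 6 in each mouse. A footprint shared by both mice at chr17:35202023-35202062, upstream of the Tnf start, covered the SP/KLF match. No footprint shared by both mice covered the NF-kB match marked in Ltb.

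Ltb, Tnf and Lta are neighbours, and their windows, gene body plus 10 kb on either side, overlapped in a stretch of 30.9 kb (chr17:35184439-35215351). That stretch held 11 peaks in mouse 1 and 18 in mouse 2, and all 11 peaks of mouse 1 overlapped a peak of mouse 2. The strongest site of mouse 2 lay inside Ltb, at chr17:35195741-35195980, with a signal of 28.7, against 8.55 in mouse 1. It was 769 bp from the start of another microRNA gene, Mir6973a. The mice thus differed in which site of Ltb was higher, since in mouse 1 the promoter had the larger value. A site inside Tnf (chr17:35200541-35200760) reached 8.39 in mouse 1 and 8.71 in mouse 2, above the Tnf promoter in both. An intron of the neighbouring gene Lst1 held a further peak with a signal of 5.38 in mouse 1 and 10.9 in mouse 2.

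**Figure D2:**
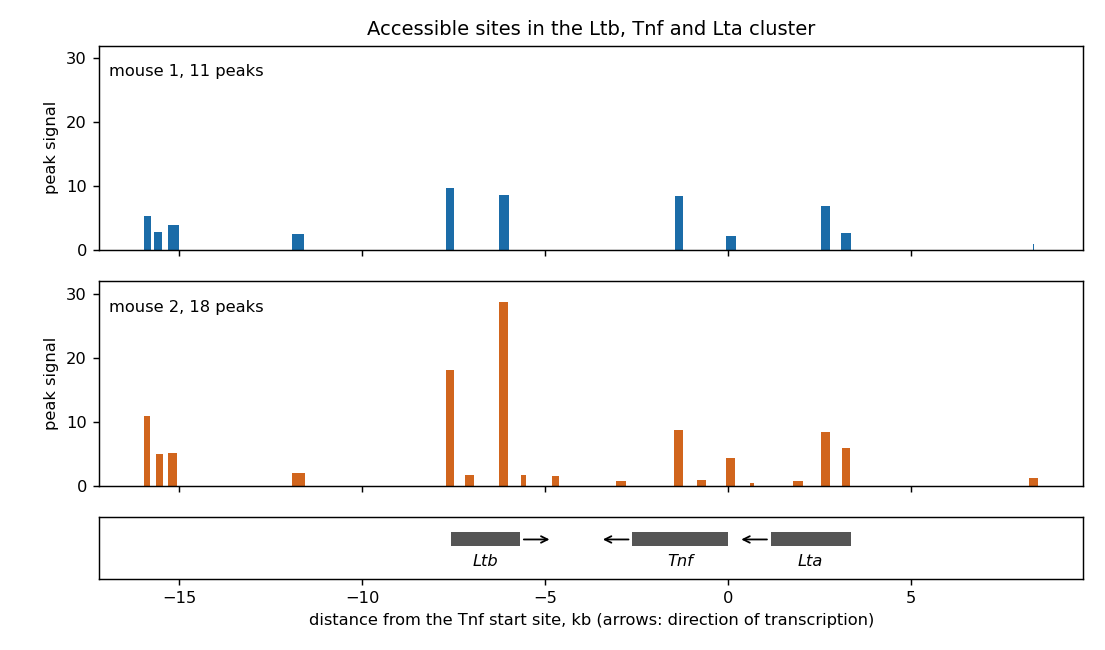
Peak signal (height of bars) against distance from the Tnf start site in kb, for mouse 1 (blue) and mouse 2 (orange), with the gene bodies below and arrows in the direction of transcription. The bars show 11 peaks in mouse 1 and 18 in mouse 2, of which the site inside Ltb is the tallest in mouse 2 with 28.7.

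Fasl and Tnfsf10, grouped here as death ligands, had weaker promoters than Ltb and Lta in both mice. Fasl, whose product binds Fas, had a signal of 1.91 in mouse 1 and 1.57 in mouse 2. Tnfsf10, which encodes TRAIL, had 1.86 and 2.15. Both genes were within the range of the other accessible ligand promoters.

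The promoters of the costimulatory ligands ranged widely, and 2 of the 6 had no peak on the shorter list. Tnfsf14, which encodes LIGHT, a ligand of the receptors HVEM and LTBR, reached 6.44 in mouse 1 and 6.53 in mouse 2 at its promoter. These were the most similar values of any accessible member, at 1.01-fold. Tnfsf8, the CD30 ligand gene, had 2.58 and 4.23, and Tnfsf4, the OX40 ligand gene, had 1.12 and 2.81. Tnfsf9, the gene of the ligand of the Tnfrsf9 product, had 0.638 and 1.02. A site between genes, 8465 bp from the Tnfsf9 start at chr17:57096661-57096820, was stronger, with 2.33 in mouse 1 and 8.01 in mouse 2. Tnfsf15 had no peak in its window in mouse 1 and 1 in mouse 2, between genes, with a signal of 0.554. Tnfsf18, the GITR ligand gene, had no peak of either list in its window and no base of significant cutting within 1 kb of its start in either mouse.

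Tnfsf11 encodes RANK ligand. It had 3 promoter peaks in each mouse, the strongest with a signal of 1.51 in mouse 1 and 2.44 in mouse 2. That peak lay 823 bp inside the gene in mouse 1, and the peak over the start site had 1.17 and 1.85. Neither gene of the B-cell survival ligands had a promoter peak on the shorter list. Tnfsf13b, which encodes BAFF, had no peak in its window of 52.6 kb in either mouse. Across all genes, 21.5% had no peak in the window in either mouse, and Tnfsf18 was the other such member.

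Tnfsf13 (APRIL), Tnfsf12 (TWEAK) and the read-through gene share a stretch of 33.5 kb (chr11:69672577-69706098) with 6 peaks in mouse 1 and 4 in mouse 2. Peaks of a list that overlap each other were counted separately, here chr11:69680221-69680760 and chr11:69680441-69680760 in mouse 1. Tnfsf13 had a site at its 3′ end with a signal of 2.02 in mouse 1 and 4.46 in mouse 2, 703 bp from the start of the antisense gene Tnfsf13os in mouse 1. The tallest site in the window of Tnfsf13, 9.08 in mouse 1 and 28.3 in mouse 2, belonged to the promoter of Senp3. The tallest site of the whole stretch, 27.3 in mouse 1 and 47.8 in mouse 2, was the promoter of Eif4a1 at its edge. The start sites of Tnfsf12 and Tnfsfm13 lie close together and had the same weak peak in mouse 2, at 0.484.

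Among receptors with a death domain, Fas had the strongest promoter. It reached 5.86 in mouse 1 and 11.6 in mouse 2. Tnfrsf21, also called DR6, had 2.85 and 5.43. Tnfrsf1a, the gene of the main TNF receptor with a death domain, had 2.99 and 4.54. The lower Fas value, in mouse 1, exceeded every value of Tnfrsf21 and Tnfrsf1a, which overlapped each other. Tnfrsf25 (DR3) and Tnfrsf10b, the mouse TRAIL receptor with a death domain, had a peak in mouse 2 alone, with 2.20 and 0.720.

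Of 9 receptors grouped here as other TRAF-binding receptors, 8 had a promoter peak in both mice, against 57.3% of all genes. This group lacks death domains and leaves out the receptors of the B-cell survival factors, which are described below. Tnfrsf9, which encodes a costimulatory receptor of activated T cells, had the highest promoter signal of all members by the mean of both mice, with 9.73 in mouse 1, just below Ltb, and 23.4 in mouse 2. That peak (chr4:150914441-150914700 in mouse 1) covers the outermost of 8 annotated Tnfrsf9 start sites and begins 4 bp from a start of Park7, a gene on the other strand, so it cannot be assigned to either gene. It was the only promoter peak of Tnfrsf9 in mouse 1, so this gene is among the 8 accessible receptors only through it. The RefSeq starts of Tnfrsf9, farther inside the gene, had peaks in mouse 2 alone, with 0.751 and 0.731. Tnfrsf12a, the TWEAK receptor gene, had 4.47 in mouse 1 and 13.1 in mouse 2.

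Tnfrsf19, also called TROY, had 3.22 in mouse 1 and 7.12 in mouse 2. Tnfrsf8, the CD30 gene, had 3.56 and 4.99. Tnfrsf1b, the second TNF receptor gene, had 1.35 and 3.16. Tnfrsf14, the HVEM gene, had 1.63 and 2.22. All 4 were lower than the Fas promoter in the same mouse. Tnfrsf11a encodes RANK, the receptor of the Tnfsf11 product. It showed the largest difference between the mice, 0.645 against 3.16, or 4.91-fold. Cd40, known from B cells and antigen-presenting cells, was the weakest of these 8, with 0.530 and 0.867.

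Receptors of the B-cell survival factors had signals below the median of all accessible genes, as most accessible members did, or had no promoter peak. Tnfrsf13b (TACI) had 3.02 in mouse 1 and 1.96 in mouse 2, at a start site inside the gene (chr11:61142301-61142540), and its RefSeq promoter had no peak in either mouse. Tnfrsf13c, the BAFF receptor gene, had 0.970 and 2.40. Tnfrsf17 (BCMA) had no promoter peak on either list. The 3 peaks in its window in each mouse were an intron peak of 0.798 and 0.559 and peaks at the start of Snx29, the tallest with 7.37 in mouse 1 and 23.1 in mouse 2. Beside these values, Pax5 and Cd79b were B-cell markers accessible in both mice (2.43 and 6.75 for Pax5, 1.19 and 1.20 for Cd79b), and Cd79a and Ms4a1 had no promoter peak. Their part in these values was not tested.

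The decoy receptors of TRAIL in the mouse, Tnfrsf22 and Tnfrsf23, lie beside Tnfrsf26 in a stretch of 98.2 kb (chr7:143597659-143695872) with 6 peaks in mouse 1 and 8 in mouse 2. Tnfrsf22 had 1.79 in mouse 1 and 4.84 in mouse 2. Tnfrsf23 had 1.53 and 2.74. Tnfrsf26 had 0.740 and 0.610, from different peaks in the 2 mice. The strongest site of this stretch, 14.4 and 21.7, was the promoter of the neighbouring gene Cars. The 3 genes are paralogs, and the sources used here do not say how reads that match several of them were counted. Tnfrsf11b, which encodes osteoprotegerin, the soluble decoy of RANK ligand, had 0.222 in mouse 2 and none in mouse 1.

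The members seen in mouse 2 alone were Tnfsf12, Tnfsfm13, Tnfrsf11b, Tnfrsf25, Ltbr and Tnfrsf10b. Ltbr, the lymphotoxin beta receptor gene, had a signal of 1.73 in mouse 2. In mouse 1, Ltbr, Tnfrsf25 and Tnfrsf10b were on the longer list, with signals of 0.491, 0.913 and 0.517. The lowest FDR within 1 kb of their starts was 0.0188 for Ltbr, 0.000486 for Tnfrsf25 and 0.00588 for Tnfrsf10b in mouse 1, and 9.92e-11, 1.27e-07 and 3.86e-05 in mouse 2. Tnfsf12, Tnfsfm13 and Tnfrsf11b had no significant cutting there in mouse 1. Mouse 2 also had the longer peak list over the whole genome, and the part of that difference in these 6 calls was not tested.

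Examples of footprints shared by both mice upstream of receptor starts follow. They were picked for holding a motif match, which 27 of the 118 shared pairs within 1 kb of members' starts held. The stretches below are on the plus strand of GRCm38, with 8 bases on either side of the footprint, and were chosen, after their values were seen, as footprints with a motif match upstream of a start, from the 3 receptor promoters with the highest mean signal and from both members with an IRF match. Capitals mark matches to SP/KLF (GGGCGG) in Fas and Tnfrsf9, SP/KLF and ETS (CCGGAAG), which overlap, in Tnfrsf12a, and IRF (GAAANNGAA) in Tnfrsf1b and Tnfrsf14, each read on either strand. The footprints lie at chr19:34290603-34290627 (Fas), chr4:150914539-150914560 (Tnfrsf9), chr17:23677481-23677544 (Tnfrsf12a), chr4:145246873-145246887 (Tnfrsf1b) and chr4:154928131-154928142 (Tnfrsf14).
Fas: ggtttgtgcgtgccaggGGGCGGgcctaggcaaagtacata
Tnfrsf9: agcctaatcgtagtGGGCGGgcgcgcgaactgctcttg
Tnfrsf12a: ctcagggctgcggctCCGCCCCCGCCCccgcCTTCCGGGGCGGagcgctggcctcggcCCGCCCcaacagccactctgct
Tnfrsf1b: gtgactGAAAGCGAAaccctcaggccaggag
Tnfrsf14: aggaaaagtGAAAATGAAagaaaaaata
The distance from the footprint to the nearest start of the same gene was 39 bp for Fas, 2 bp for Tnfrsf9, 13 bp for Tnfrsf12a, 3 bp for Tnfrsf1b and 54 bp for Tnfrsf14. The Tnfrsf9 footprint lies in the peak beside the Park7 start, so it cannot be assigned to either gene.

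In 4 genes a site inside the gene was stronger than the promoter. Of the 26 members accessible at the promoter in both mice, Tnfrsf1a, Tnfrsf19, Tnf and Tnfrsf1b had a gene-body peak over 1 kb from any annotated start with a higher signal than their promoter in both mice. Among all such genes the share was 4.86%. The Tnfrsf1a site in an intron (chr6:125355201-125355640 in mouse 1) had a signal of 11.2 in mouse 1 and 13.3 in mouse 2, a mean of 12.2 ± 1.52 (SD, n = 2). This was the strongest shared peak away from start sites in all windows. The Tnfrsf19 site, also in an intron, had 7.20 and 11.8, a mean of 9.48 ± 3.22 (SD, n = 2), and lay 25231 bp from the nearest start. The Tnf site spans the last intron and the start of the last exon, with a mean of 8.55 ± 0.230 (SD, n = 2). The Tnfrsf1b site overlapped an exon and had 2.41 in mouse 1 and 7.47 in mouse 2. In Tnfrsf8, Tnfrsf14 and Tnfrsf26 this was so in mouse 2 alone.

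**Figure D3:**
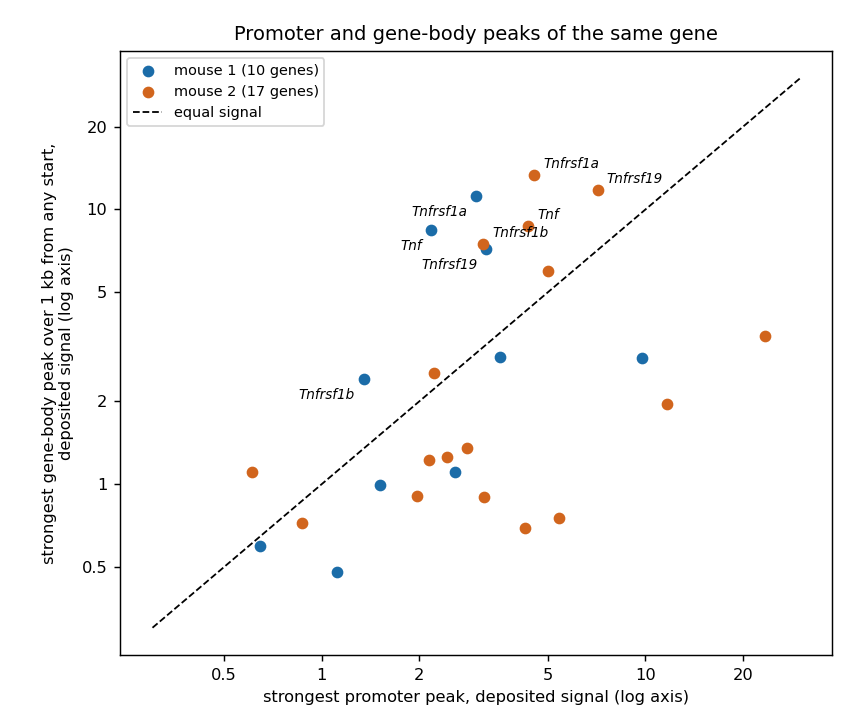
Signal of the strongest gene-body peak over 1 kb from any start (vertical log axis) against signal of the strongest promoter peak (horizontal log axis), for members that had both kinds of peak, 10 genes in mouse 1 (blue) and 17 in mouse 2 (orange). Named points are the 4 genes above the line of equal signal in both mice.

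The sequence common to both mice's peaks is given for the 3 strongest of these sites, on the plus strand of GRCm38: Tnfrsf1a at chr6:125355201-125355480, Tnfrsf19 at chr14:61012461-61012640 and Tnf at chr17:35200541-35200760. Capitals mark the E-protein motif CAGCTG in Tnfrsf1a, the NF-kB motif, the TCF1/LEF1 motif CTTTGAT and the SP/KLF motif GGGCGG in Tnfrsf19, and the AP-1 motif TGANTCA and the ETS motif CCGGAAG in Tnf, on either strand.
Tnfrsf1a intron: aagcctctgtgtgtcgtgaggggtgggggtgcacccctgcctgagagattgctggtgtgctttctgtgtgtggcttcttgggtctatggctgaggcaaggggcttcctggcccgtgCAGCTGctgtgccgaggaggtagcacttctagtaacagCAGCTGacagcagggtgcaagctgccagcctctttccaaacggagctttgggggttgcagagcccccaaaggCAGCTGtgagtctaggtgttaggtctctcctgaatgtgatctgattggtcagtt
Tnfrsf19 intron: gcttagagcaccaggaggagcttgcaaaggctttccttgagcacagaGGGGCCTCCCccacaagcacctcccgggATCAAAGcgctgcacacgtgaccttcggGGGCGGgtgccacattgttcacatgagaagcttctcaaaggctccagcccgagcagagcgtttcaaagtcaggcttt
Tnf last intron and exon: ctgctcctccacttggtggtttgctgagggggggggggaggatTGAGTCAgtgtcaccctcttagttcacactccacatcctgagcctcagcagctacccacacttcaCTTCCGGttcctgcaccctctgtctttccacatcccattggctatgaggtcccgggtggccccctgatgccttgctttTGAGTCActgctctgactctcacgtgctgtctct
The Tnfrsf1a site held 3 matches to CAGCTG. Of 31591 mouse 1 peaks over 1 kb from any start, 0.605% held 3 or more in 280 bases. In 180 bases, 4.83% of these peaks held the NF-kB motif, 4.31% the TCF1/LEF1 motif and 10.2% the SP/KLF motif, all present at the Tnfrsf19 site. The Tnf site held 2 AP-1 matches and 1 ETS match. In 220 bases, 0.383% of these peaks held 2 or more AP-1 matches and 3.54% an ETS match. The limits of 3 and 2 matches are the numbers these same sites held, so the shares are description and no test. A match describes the letters and does not show binding.

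Peaks were dense around the superfamily, above all in the lymphotoxin cluster. The median of the 37 genes was 1.08 peaks per 10 kb of gene body plus flanks (mean of both mice), against 0.485 over all genes, and 27 of the 37 lay above the median of all genes. The median window was similar in length, 36.9 kb against 37.6 kb. Ltb had 4.57 in mouse 1 and 7.77 in mouse 2, Tnf had 3.54 and 6.63, and Lta had 3.16 and 6.31. These 3 share most of their peaks. Tnfrsf1a followed with 2.42 and 2.72, Tnfrsf12a with 2.27 and 2.72, and Tnfrsf14 with 2.25 and 2.63. The Tnfrsf12a window held the promoters of Hcfc1r1 and Thoc6 as well. Without peaks within 1 kb of another protein-coding gene's start, the median was 0.670 for members and 0.332 for all genes, and 29 members lay above the latter.

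**Figure D4:**
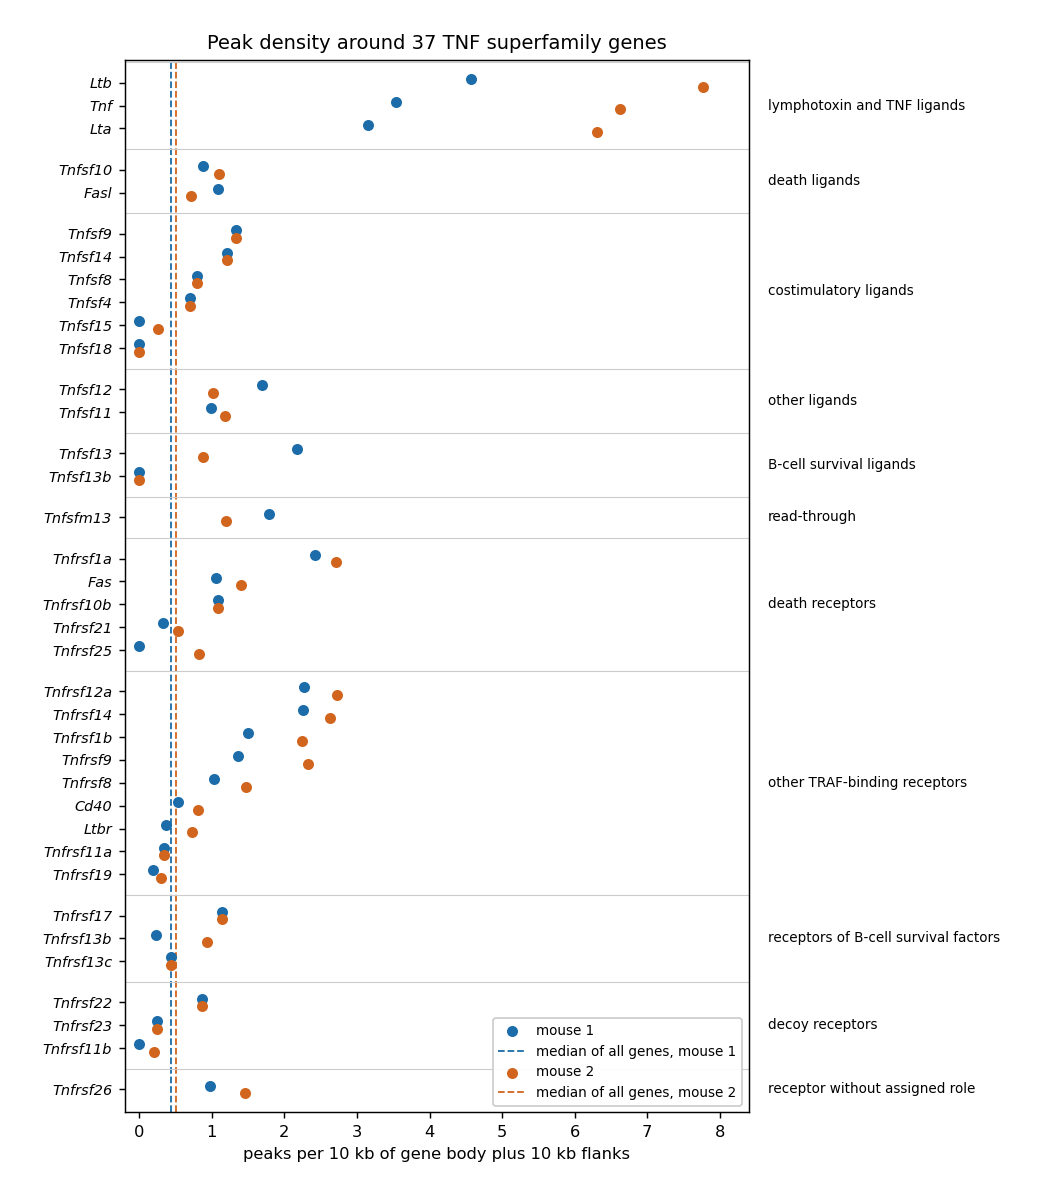
Peaks per 10 kb of gene body plus 10 kb flanks for each of the 37 genes in mouse 1 (blue) and mouse 2 (orange), ordered by role, with dashed lines at the median of all genes. Ltb, Tnf and Lta lie between 3.16 and 7.77, above every other member in both mice.

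The 8 members with the highest mean promoter signal were 5 receptor genes and 3 ligand genes. Among them, Tnfrsf9 owes its value to the peak beside the Park7 start, which cannot be assigned to either gene. Over the mice (SD, n = 2), the mean was 16.6 ± 9.65 for Tnfrsf9, 13.9 ± 5.90 for Ltb, 8.79 ± 6.10 for Tnfrsf12a and 8.74 ± 4.08 for Fas. It was 7.67 ± 1.02 for Lta, 6.49 ± 0.0673 for Tnfsf14, 5.17 ± 2.76 for Tnfrsf19 and 4.27 ± 1.01 for Tnfrsf8. Except for Lta and Tnfsf14, neighbours in this order differed by less than the larger SD of the pair.

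Accessible superfamily promoters had lower signals than accessible promoters in general. The median of the 26 members was 2.04 in mouse 1 and 3.70 in mouse 2, against 5.09 and 12.5 over the 11929 genes accessible in both mice. Ltb and Tnfrsf9 were above the median in both mice, 2 of 26, against 44.3% of all such genes. The Tnfrsf9 value comes from the peak beside the Park7 start, which cannot be assigned to either gene. Lta, Tnfsf14 and Fas were above it in mouse 1, and Tnfrsf12a in mouse 2. Footprints were fewer too: the median number within 1 kb of the starts was 8 in mouse 1 and 7.5 in mouse 2 for members, against 11 and 12. The members' RefSeq promoters, 33 from 29 genes, had a median GC content of 55.7% against 53.0% over 31396 promoters.

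Genes that act downstream of the receptors stood higher than the members, but not above accessible genes in general. All 30 listed signalling genes, from TRAF adaptors to NF-kB subunits, had a promoter peak in both mice, against 57.3% of all genes. Their medians were 4.56 in mouse 1 and 11.4 in mouse 2, below the 5.09 and 12.5 of all genes accessible in both mice. In both mice, 12 of the 30 exceeded the median of all such genes, against 44.3% of those genes. The highest were Map3k14, the NIK kinase gene of the alternative NF-kB pathway, with 24.96 in mouse 1 and 40.3 in mouse 2, Traf2 with 19.8 and 37.4, and Sharpin, of the linear ubiquitin ligase, with 18.3 and 33.3. The lowest by the mean of both mice were Mlkl, the executor of necroptosis, with 0.325 and 0.564, its activating kinase gene Ripk3 with 2.43 and 3.86, and Traf1 with 3.05 and 3.39. Of 5 superfamily genes outside the symbol rule, Cd27, Relt and Edar had a promoter peak in both mice, Ngfr in mouse 2 alone and Cd70 in neither. Cd27, a costimulatory receptor gene, had 6.29 and 7.14, and Relt had 6.72 and 24.4.

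**Figure D5:**
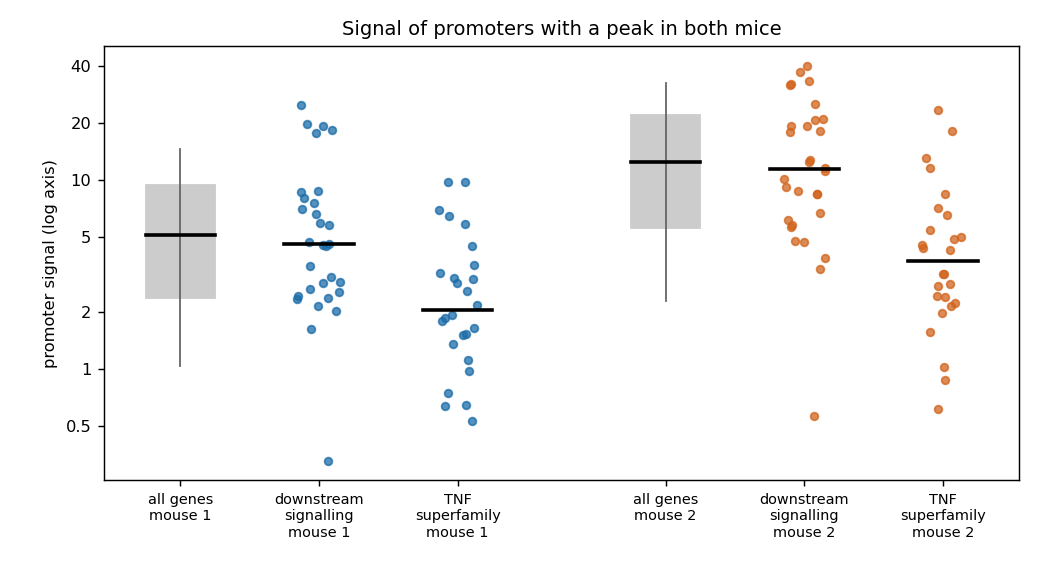
Promoter signal (log axis) of genes with a promoter peak in both mice, in mouse 1 (blue) and mouse 2 (orange). Boxes give the middle of the distribution of all genes (25th to 75th percentile) with lines from the 10th to the 90th, points are single genes, and black bars are medians: 5.09, 4.56 and 2.04 in mouse 1 and 12.5, 11.4 and 3.70 in mouse 2.

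Most accessible members had a higher signal in mouse 2, as most genes did. The promoter signal was higher in mouse 2 for 23 of 26 members, against 97.1% of all genes and 30 of 30 signalling genes, and Fasl, Tnfrsf13b and Tnfrsf26 were the exceptions. The median log2 ratio of mouse 2 over mouse 1 was 0.78 for members, 1.20 for the signalling genes and 1.27 for all genes with a promoter peak in both mice. For the 12 thymocyte markers it was 0.53. Once the median of all genes was subtracted, the members' median was -0.50. These medians were not tested against each other. With 1 library per mouse, a difference between animals and a difference between libraries cannot be told apart.

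The peaks themselves were mostly found in both animals. The windows of the 37 genes held 115 peaks in mouse 1, of which 102 (88.7%, Wilson 95% interval 81.6 to 93.3%, counting error only) shared at least 1 bp with a peak of mouse 2. The share over all autosomal peaks of mouse 1 was 80.9%. Of the 152 peaks in mouse 2, 104 (68.4%) overlapped a mouse 1 peak, against 66.1% of all autosomal peaks. Within 1 kb of a member's start, 38 of 40 mouse 1 peaks and 39 of 57 mouse 2 peaks were shared. The share of peaks near the starts of all genes was not computed, so these counts have no matched background. Of the 48 unshared mouse 2 peaks, 23 overlapped an entry of the longer list of mouse 1, and 29 overlapped significant cutting there.

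Motif matches in the members' RefSeq promoters were counted beside all promoters of the same length of 300 bases. SP/KLF (GGGCGG) was in 51.5% of member promoters and 36.0% of all, and AP-1 (TGANTCA) in 21.2% and 7.84%. IRF (GAAANNGAA) was in 15.2% and 8.52%, and NF-kB in 12.1% and 8.55%, the latter at Ltb, Tnfrsf25, Tnfrsf8 and Tnfrsf9. E protein (CAGCTG) was in 21.2% and 16.3%, RUNX (TGTGGTT) in 6.06% and 5.32%, TCF1/LEF1 (CTTTGAT) in 6.06% and 3.76%, and ETS (CCGGAAG) in 9.09% and 9.0%. The motif of GATA factors (AGATAA) was in 3.03% and 11.2%, and NRF1 in 0 of 33 and 0.968%. Each member share rests on 33 promoters, so 1 promoter moves it by 3.03 points. The promoters of Tnfsf13b overlap and hold the same AP-1 match, which was counted in each of them.

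Within 1 kb of the members' starts, 118 pairs of footprints overlapped between the mice, and 29 of the 37 members had at least 1 such pair, against 58.2% of all genes. A motif match lay in 27 pairs, or 22.9%, against 26.5% of the 91489 such pairs near the starts of all genes. SP/KLF was in 19 pairs, or 16.1%, at 13 members, against 21.4% of all pairs. NF-kB, ETS, IRF, RUNX and E-protein matches lay in 2 pairs each, or 1.69%, against 1.13%, 2.44%, 0.445%, 0.221% and 1.16% of all pairs, and counts this small describe single sites. Both ETS pairs were at Tnfrsf12a, and the pairs with NF-kB were at Ltb (chr17:35194556-35194576) and Lta (chr17:35205265-35205278). The NF-kB match marked in the Ltb promoter sequence above lies upstream of that Ltb footprint and was in neither pair. No shared footprint within 1 kb of the members' starts held a match to AP-1, TCF1/LEF1, GATA or NRF1. These were in 0.125%, 0.294%, 0.155% and 0.419% of all pairs.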

How the data were processed

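DNase-seq of whole thymus from 2 mice was analysed from the files the authors deposited, in mm10 per the labels. The peak files give the authors' signal (peak height) per library, not pooled. Regions of cutting carry the authors' p-value as an FDR and are listed below 0.05 in the deposited files. The deposited footprints give positions only. No aligner, peak caller or depth is named in the labels or headers. A signal step was 0.00638157 in mouse 1 and 0.00503795 in mouse 2. Whether reads of CAST/EiJ alleles aligned as well was not tested.

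The shorter peak list was used throughout, with the longer list as an alternative. Peaks were joined to GENCODE M21 start sites (1000 bp on either side) and to gene bodies plus 10 kb, with an overlap of at least 1 bp (bedtools 2.31.1, Python 3.11.15, numpy 2.4.6, pandas 2.3.3, scipy 1.17.1, matplotlib 3.10.9). The overlap code was tested on simulated data against bedtools. Values are given per mouse, with SD over n = 2, and no test was made, since both libraries form 1 group. Every member was named, with values in full for the 8 highest mean promoter signals, the 6 highest densities, members whose promoter differed between the mice or had no peak, and genomic clusters, and for the 3 highest and 3 lowest signalling genes and the 5 strongest shared sites away from starts. RefSeq promoters (GRCm38.p6) matched 29 of the 37 members. A marker gene of the lists is not reported here. Members, lists and roles were chosen with earlier results of these data known. Alternatives were the longer list, the stronger 50% of peaks, other windows, RefSeq starts and each mouse alone.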

Additional observations from a re-analysis of the deposited data

How the results depend on the processing

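Of 70 alternative values computed, 52 stayed within their limit, 17 moved and 1 changed sign. The limit was the spread between the mice or 1.5 times the count, and for the share of overlapping peaks its Wilson interval. The log2 ratio had no such limit, so any change of it without a change of sign counted as moved. The count of 26 members accessible at the promoter in both mice ranged from 20 to 32 over GENCODE starts, and was 18 of the 29 members with a RefSeq promoter. With each mouse alone, members without a promoter peak numbered 5 to 11, against 5 with either mouse. They numbered 3 on the longer list and 12 among the stronger 50% of peaks. The mean number of peaks in the windows, 133.5, became 203.5 on the longer list, 76 with the stronger 50%, 84 over gene bodies alone and 305 with flanks of 50 kb. The median density of 1.08 peaks per 10 kb became 1.52 on the longer list, 0.395 with the stronger 50%, 1.11 over gene bodies, 0.766 with 50 kb flanks, 0.988 to 1.01 with each mouse alone, and 0.698 without peaks near the starts of genes outside the family, an alternative added after seeing the data. The mean number of footprints near starts, 225, became 148.5 within 250 bp, 306 within 2500 bp and 161.5 when only footprints touching a peak were counted. Fewer or more peaks and bases enter by construction of these alternatives; beyond that the cause was not tested. The median log2 ratio of mouse 2 over mouse 1, 0.78, became 0.84 on the longer list, 0.81 with summed promoter peaks and -0.50 once centred on all genes, which subtracts the shift of 1.27 shared by all genes. No paired analysis was possible because both libraries form 1 group. With 2 libraries of unknown depth, a missing peak does not show that a promoter was inaccessible.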
